A study of Caenorhabditis elegans with 12 samples.

Results

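Exons that are skipped in some mRNAs and whose length is a multiple of 3 nt were followed in 12 RNA-seq libraries of Caenorhabditis elegans larvae. Such an exon can be kept or left out without shifting the reading frame of the codons behind it, provided that it is coded from end to end. They were chosen by length alone, from the skipped exon events that the authors deposited in a catalogue named for Ensembl archive 65. Of 601 skipped exon events, 447 had an alternative exon of a length divisible by 3, and the other 154, called frame-shifting here, did not. That catalogue listed 2619 events of all kinds over the libraries, and both catalogues of the authors together listed 7886. The 447 events lay at 435 different exons, since 10 exons took part in more than 1 event. Counts of in-frame and frame-shifting exons below are counts of events, unless stated otherwise.

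The study asked how 2 spliceosomal helicases affect the choice between 3′ splice sites. All 12 libraries were made from whole worms at the L3 larval stage, reared at 20 °C on OP50 bacteria and harvested 34 hours after embryos were released by bleaching. Ribosomal RNA was removed and paired reads of 150 nt were sequenced. The 4 groups held 3 libraries each. Wild-type N2 formed a first set, N2 az02 (az021 to az023), and a second set, N2 az04 (az041 to az043). The mutant sacy-1(tn1385), strain DG3430, was sequenced as az024 to az026, and the mutant mog-5(az192), strain SZ454, as az044 to az046. Each mutant was a single strain, and which N2 set went with which mutant was read from the library numbers in the titles. The labels do not state whether replicate libraries stem from separate cultures, and every p-value here reflects the scatter of these libraries alone, which may be technical. The deposited events carried no gene names, so exons are named by their position on genome build ce10, and the level of sacy-1, of mog-5 or of tissue markers was not analysed here.

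An exon that can be skipped lies between 2 introns, and the spliceosome either joins it to both neighbours or joins the neighbours directly. Exon skipping is a common way for animals to make protein variants from 1 gene, and in worms it is known from muscle and neuronal genes. A skipped exon that keeps the frame removes or adds a stretch of protein, while one that shifts the frame often introduces a premature stop codon and exposes the mRNA to nonsense-mediated decay. SACY-1, the worm counterpart of human DDX41, is a DEAD-box helicase found in spliceosomes. MOG-5, the counterpart of PRP22, acts late in splicing and releases the finished mRNA. An acceptor, or 3′ splice site, is the boundary at which an exon begins after an intron.

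Inclusion is given as the percentage of the included form, computed from the 2 scores that the authors deposited per event and library. Read depth was unknown, so no interval that needs it could be given. Of the 447 events, 426 were listed in all 12 libraries and 21 were not, the fewest in 2 libraries. A library listed 436 to 445 of them. Between 2 libraries of the same group, 14.1% to 31.7% of the 426 exons differed by at least 5 percentage points. Over these exons the mean SD was 3.50 points for N2 az02 and 2.43 for N2 az04, and the mutants lay between them, sacy-1 at 3.04 and mog-5 at 2.74.

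In-frame skipped exons covered the whole range of inclusion. Of the 426 exons listed everywhere, 51 (12%) had a mean inclusion under 5%, 65 lay from 5% to 20%, 105 from 20% to 50%, 92 from 50% to 80%, 47 from 80% to 95% and 66 (15.5%) above that. In 120 exons (28.2%) all 12 libraries lay from 20% to 80%, in 43 all lay at or above 95% and in 29 all lay at or below 5%. The range over the 12 libraries had a median of 10.5 points, stayed under 10 points in 198 exons and reached 30 points or more in 40.

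Frame-shifting exons were included more often on average. Their mean inclusion was 53.96% to 56.0% per library, against 48.8% to 49.8% for in-frame exons, and it was the higher of both in 12 of 12 libraries, by 5.01 to 6.60 points. These library values rest on the same exons each time, so they show how steady the gap was and are no test of the classes. The frame-shifting class held a larger share of exons above 95%, with 34 of 140 (24.3%). It also held 16.4% with all 12 libraries at or above 95%, against 10.1% of in-frame exons. The gap was 6.32 ± 0.241 points in N2 az02 and 5.21 ± 0.118 in sacy-1 (SD, n = 3), without overlap (exact two-sided permutation test, p = 0.1, the smallest that 3 against 3 libraries can give). In N2 az04 it was 5.47 ± 0.482 points, which also did not overlap N2 az02 (exact permutation p = 0.1). The mog-5 value of 5.79 ± 0.390 overlapped it (exact permutation p = 0.5).

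In-frame exons were mostly short, and mean inclusion was lowest in the shortest classes. Their length ran from 3 to 11688 nt with a median of 99 nt, against a median of 126.5 nt for frame-shifting exons. Mean inclusion was 33.2% in the 38 exons of up to 27 nt, 37.1% in the 98 exons of 28 to 60 nt and 48.4% in the 118 exons of 61 to 120 nt. It was 61.8% in the 118 exons of 121 to 240 nt and 57.8% in the 54 longer ones. Every library gave the first 4 classes in this order, as the plot of inclusion by length shows. Frame-shifting exons averaged 40.2%, 53.2% and 65.6% in the 3 classes from 28 to 240 nt, above in-frame exons. In the longest class they averaged 55.7%, below in-frame exons, and only 1 of the 140 fell in the shortest class. The gap between both classes was thus not the same at every length. Across the 426 exons Spearman's rho of length and mean inclusion was 0.30, and 0.16 across the 140 frame-shifting exons. Both are descriptions across exons measured in the same libraries.

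**Figure D1:**
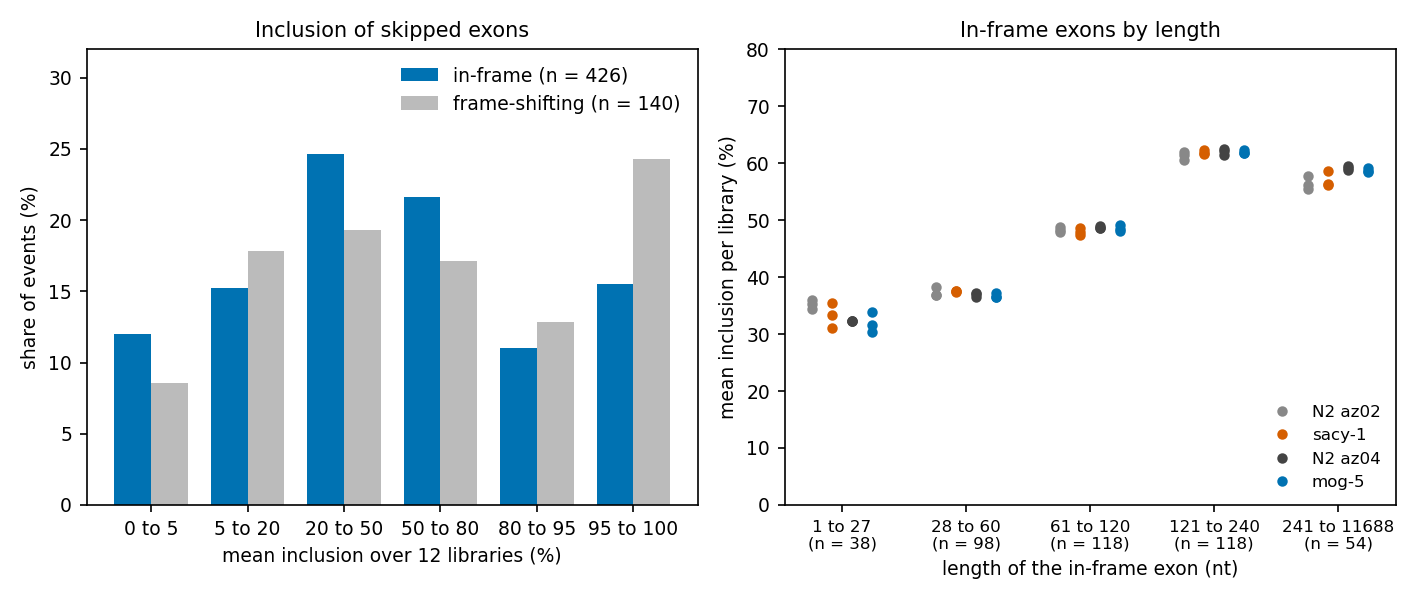
Left, share of skipped exons (y axis, %) by mean inclusion over 12 libraries (x axis, %), for 426 in-frame and 140 frame-shifting exons. Right, mean inclusion of in-frame exons in each library (points, %) by exon length (nt), coloured by group. Library means lay between 30.3% and 35.9% in the shortest class and between 60.5% and 62.4% in the class of 121 to 240 nt.

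Among very short exons, length did not fix the level. The 3 nt exon at chrX:11074633-11074635 has the length of 1 codon, but whether it is coded is not known here. It was included at 0.53% to 4.88% in the 12 libraries, with a median sum of scores of 999 of 1000. Both 9 nt exons were mostly included. The exon at chrI:7445008-7445016 averaged 73.5% over the 12 libraries and the exon at chrIII:7985278-7985286 averaged 74.4%. Their libraries ran from 67.2% to 82.6% and from 67.8% to 79.1%, so the ranges overlapped. The 12 nt exon at chrI:5557963-5557974 was included at 12.9% to 27.6% and the 15 nt exon at chrV:6216463-6216477 at 10.3% to 17.7%. The 6 nt exon at chrX:709835-709840 stood at 32.5%, 50% and 25% in N2 az02 and at 37.5%, 28.6% and 48.5% in N2 az04. In sacy-1 it stood at 0.1%, at 66.7% and at the upper limit of the values, and in mog-5 at 36.8%, 14.3% and 21.1% in mog-5. No level can be read for sacy-1 there, since its 3 libraries covered the whole scale.

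At the ends of the range, 7 in-frame exons stood at exactly 0.1% in all 12 libraries and 14 at the upper limit, 0.1% short of full inclusion, which no frame-shifting exon did at the low end and 6 did at the high end. Why values stop at these limits is not stated in the sources used here. The first 5 of the lowest, by position, were exons of 87 nt at chrIII:1140355-1140441, 168 nt at chrIII:11301157-11301324, 60 nt at chrIV:8756228-8756287, 63 nt at chrV:6201357-6201419 and 99 nt at chrV:10321234-10321332. Near the middle, the 120 nt exon at chrI:3801838-3801957 averaged 50.4% and ran from 44.8% to 55.6%. The 588 nt exon at chrII:11623872-11624459 averaged 50.9% and ran from 43.1% to 58.8%. Both held a balanced level in all 4 groups. A balanced mean can also come from scatter, as in the 39 nt exon at chrX:2681798-2681836, which averaged 50.6% but ran from 33.7% to 77.5%. The 33 nt exon at chrIV:1419423-1419455 stood at 46.7% to 49.3% in 11 libraries and at 82.7% in az026, with a median sum of scores of only 42.95 of 1000.

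Mean inclusion over the 426 exons was nearly level between the groups. It was 49.3% ± 0.396 in sacy-1 and 49.2% ± 0.278 in N2 az02 (SD, n = 3; exact two-sided permutation p = 0.9). In mog-5 it was 49.4% ± 0.401 against 49.6% ± 0.123 in N2 az04 (exact permutation p = 0.4). The wild-type sets differed by 0.32 points (exact permutation p = 0.2). These are bulk libraries, in which a different mix of cells and different splicing within cells cannot be told apart.

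Single exons also stayed under the threshold in both mutants. Over every event of the catalogue, an event was called when limma gave a Benjamini-Hochberg adjusted p under 0.05 and the group means differed by at least 15 points. In sacy-1 against N2 az02, 0 of 426 in-frame exons were called, while 0.714% of all 2382 events were. limma on the arcsine square root scale also called 0 of them, and the count at an unadjusted p under 0.05 was 58 (13.6%), close to 12.6% of all events. Of these 58, 23 were higher and 35 lower in sacy-1, against 6.51% and 6.09% of all events. The 3 libraries of both groups did not overlap in 74 exons (17.4%), against 16.3% of all events. Of these, 35 were higher (8.61% of all events) and 39 lower (7.68%) in sacy-1. In addition, 10 exons differed by 15 points or more, which was 2.35% against 4.11%. A single exon reached an adjusted p under 0.05 without the minimum difference, where the background was 1.13%. It was the 213 nt exon at chrII:11061191-11061403, which was 6.73 points higher in sacy-1 (8.91% in N2 az02, 15.6% in sacy-1, limma adjusted p = 0.0446). A second event of the same exon was 6.34 points higher in sacy-1 and did not pass (9.88% and 16.2%, limma adjusted p = 0.218).

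In mog-5 against N2 az04, 0 of 440 in-frame exons were called, against 0.04% of all 2498 events. The arcsine scale called 0 as well, and the smallest adjusted p from limma was 0.122. At an unadjusted p under 0.05 there were 57 exons (13%), with a background of 10.2%. As in sacy-1, the lower side was the fuller. In mog-5 39 exons (8.86%) were lower, against 4.76% of all events, and 18 (4.09%) were higher, against 5.4%. Frame-shifting exons leaned the same way, with 14 of 145 (9.66%) lower and 8 (5.52%) higher, so this was not particular to in-frame exons. Groups did not overlap in 74 exons (16.8%; 13.9% of all events), of which 28 were higher (7.53% of all events) and 46 lower (6.33%), and 6 differed by 15 points or more (1.36%; 2.12% of all events). The median absolute difference was 1.59 points over in-frame exons and 1.09 points over all events, while in sacy-1 these were 2.06 and 1.35 points.

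**Figure D2:**
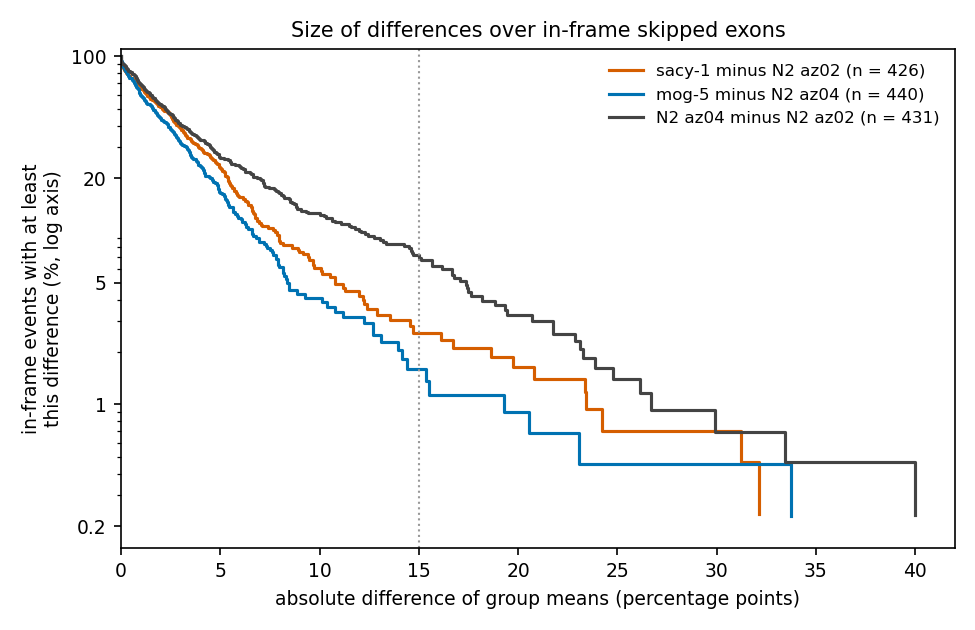
Share of in-frame exons (y axis, %, log axis) whose group means differed by at least the amount on the x axis (percentage points), for each mutant against its N2 set and for both N2 sets. The dotted line marks 15 points, which 10 exons reached in sacy-1, 6 in mog-5 and 29 between the wild-type sets.

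The exons with the largest differences in sacy-1 are given as values, since none was called. The 27 nt exon at chrV:10993167-10993193 was included at 84.5%, 73.2% and 76.4% in N2 az02 and at 35.1%, 51.4% and 51.3% in sacy-1. N2 az04 stood at 66.7%, 55% and 65.5% and mog-5 at 37.5%, 63.3% and 61.9%. All 3 sacy-1 libraries were below all 6 wild-type libraries, while mog-5 overlapped its wild-type set, with only az044 low. The difference in sacy-1 was -32.1 points (limma unadjusted p = 0.00471, adjusted p = 0.138).

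The 213 nt exon at chrII:167174-167386 went the other way. It is the one meant below by the 213 nt exon of chromosome II. Its inclusion was 42.6%, 35.1% and 41.2% in N2 az02, 63.8%, 68.4% and 56.8% in sacy-1. The second wild-type set gave 32%, 38.4% and 37.8% and mog-5 gave 48.4%, 45.8% and 51.99%. Every mutant library lay above every wild-type library, sacy-1 above mog-5. The difference was 23.4 points in sacy-1 (limma unadjusted p = 0.00281, adjusted p = 0.105) and 12.7 points in mog-5 (unadjusted p = 0.00596, adjusted p = 0.24). In sacy-1 the call was reached when all 12 libraries shared 1 estimate of the spread (limma adjusted p = 0.00699), and also against all 6 wild-type libraries (adjusted p = 0.0068).

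On the X chromosome 3 exons stood apart in sacy-1. The 147 nt exon at chrX:7938468-7938614 had 46.1%, 51.9% and 44.4% inclusion in N2 az02 and 56.5%, 63.6% and 65.9% in sacy-1, while the other 6 libraries ran from 45.8% to 54.2%. For the 132 nt exon at chrX:13626560-13626691 the values were 21.6%, 20.4% and 12.8% in N2 az02 and 29.0%, 34.5% and 30% in sacy-1, with 13.1% to 22.5% elsewhere. In both exons the sacy-1 libraries were above all other libraries. The 111 nt exon at chrX:11425430-11425540 was lower instead, with 49.7%, 53.3% and 62.3% in N2 az02 and 38.9%, 42.8% and 42.9% in sacy-1, and it was low in mog-5 too (47.1%, 44.8% and 42.4%, against 52.9%, 52.5% and 52.5% in N2 az04). The differences in sacy-1 were 14.5, 12.9 and -13.6 points, with limma adjusted p = 0.202, 0.202 and 0.249. In mog-5 they were 0.04, -3.85 and -7.90 points, with limma adjusted p = 1, 0.662 and 0.159.

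A 75 nt exon at chrIV:14894135-14894209 was included at 43.03%, 47.1% and 37.8% in N2 az02 and more evenly at 53.2%, 54.9% and 53.4% in sacy-1 (11.2 points, limma adjusted p = 0.199). N2 az04 lay at 31.6%, 36.4% and 38.5%, so the sacy-1 libraries were above both wild-type sets, and mog-5 at 36.5% to 41.4%. The 39 nt exon at chrIII:6412383-6412421 stood at 0.1%, 12.5% and 16.7% in N2 az02 and at 33.3%, 25% and 33.3% in sacy-1 (20.8 points, limma adjusted p = 0.226). Its 3 N2 az04 libraries lay higher still, at 33.3%, 42.9% and 42.9%, so the sign of the sacy-1 difference depended on the wild-type set. Its median sum of scores was 333 of 1000.

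In mog-5 the largest difference was at the 153 nt exon at chrV:20858166-20858318, with 42.4%, 55.4% and 64.8% in mog-5 and 30.4%, 25.5% and 5.56% in N2 az04. The sacy-1 libraries stood at 0.1%, 0.1% and 15.6%, and N2 az02 at 0.1%, 0.1% and 10%. All 3 mog-5 libraries were the highest of the 12, but the wild-type libraries themselves spread from 0.1% to 30.4% (difference 33.7 points, limma adjusted p = 0.347). The 42 nt exon at chrV:8910709-8910750 was included at 34.9%, 30.95% and 19.2% in mog-5 and at 2.17% to 16.2% in the other 9 libraries, below all 3 of mog-5 (20.5 points against N2 az04, limma adjusted p = 0.305).

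Lower inclusion in mog-5 was seen at 4 of the 8 exons with the largest differences. The 72 nt exon at chrV:5551595-5551666 had 56.4%, 58.2% and 53.2% in mog-5 and 66.7%, 67.5% and 71.7% in N2 az04 (-12.7 points, limma adjusted p = 0.145), with sacy-1 at 58.3% to 62.8% and N2 az02 at 63.0% to 70.3%. All 6 mutant libraries were below all 6 wild-type libraries. The 51 nt exon at chrII:5752797-5752847 had 64.2%, 58.9% and 53.1% in mog-5 against 73.1%, 74.2% and 75% in N2 az04 (-15.3 points, limma adjusted p = 0.24), but N2 az02 and sacy-1 stood far above both, at 86.4% to 97%. The 78 nt exon at chrX:6845495-6845572 had 6.85%, 12.6% and 9.40% in mog-5 against 34.4%, 25.4% and 27% in N2 az04 (-19.3 points, limma adjusted p = 0.145). Wild type was not uniform there, with 9.32%, 12.3% and 67.7% in N2 az02.

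The fourth was the 153 nt exon at chrIV:363976-364128 on the minus strand. Inclusion was 87.4%, 84.2% and 83.4% in N2 az02, 72.1%, 80.7% and 70.6% in sacy-1. The second wild-type set gave 91%, 86.8% and 89.5% and mog-5 gave 71.4%, 77.6% and 71.8%. All 6 mutant libraries lay below all 6 wild-type libraries. The difference was -10.5 points in sacy-1 (limma unadjusted p = 0.0265, adjusted p = 0.289) and -15.5 points in mog-5 (unadjusted p = 0.00153, adjusted p = 0.123). The mog-5 value was called when all 12 libraries shared 1 estimate of the spread (limma adjusted p = 0.0444). The last of the 8, a 99 nt exon at chrII:8542026-8542124, ran from 0.1% to 50% in N2 az02 alone, and mog-5 stood at 23.3%, 20% and 16.4% against 0.1%, 14.9% and 8.04% in N2 az04 (12.2 points, limma adjusted p = 0.483). It was not listed in az025.

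**Figure D3:**
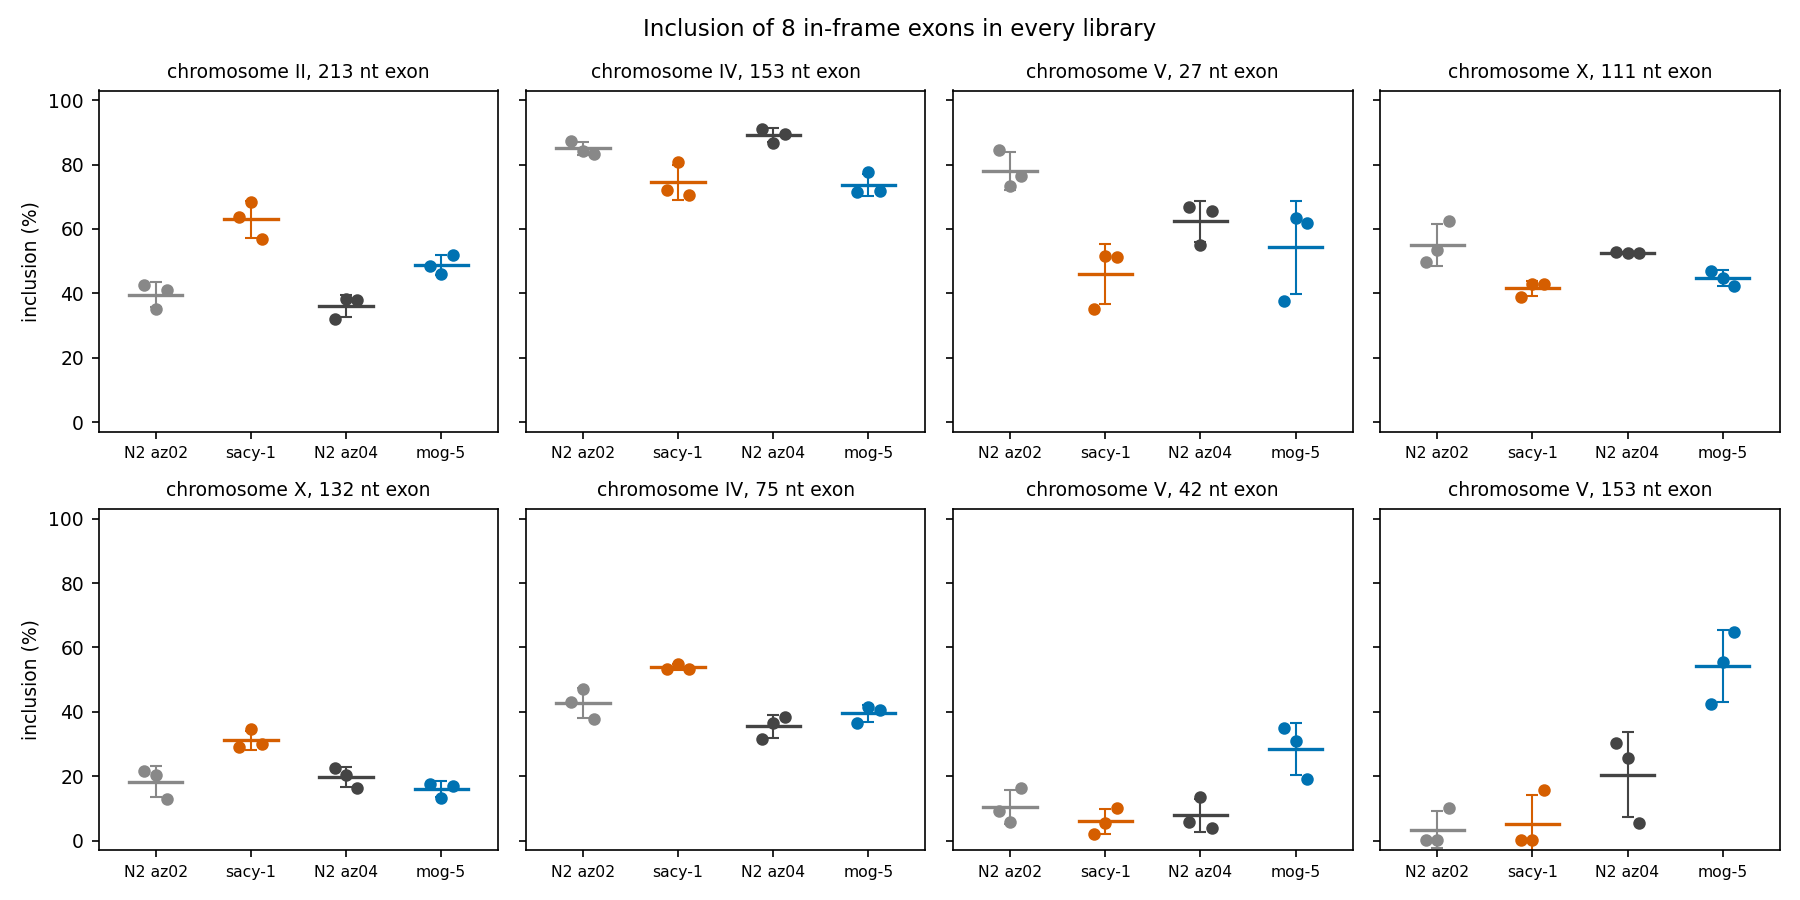
Inclusion (y axis, %) of 8 in-frame exons in every library (points), with the group mean (line) and SD (bar, n = 3), by group (x axis). The 213 nt exon of chromosome II was higher and the 153 nt exon of chromosome IV lower in all mutant libraries than in all wild-type libraries, while the last 2 exons were higher in mog-5.

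Both mutants can be set side by side without shared controls, since each had its own N2 set. In 18 of 426 exons (4.23%) the libraries of both mutants were apart from their own wild-type set, close to 4.03% of all 2380 events. In 7 of the 18 both mutants were higher, in 9 both were lower and in 2 they went opposite ways. Of all 96 such events in the catalogue, 80 went the same way. Besides the exons above, the 11688 nt exon at chrI:14882044-14893731, the longest of all, was 6.96 points higher in sacy-1 and 4.63 points higher in mog-5 (limma adjusted p = 0.138 and 0.431). The 69 nt exon at chrIV:10496454-10496522 was 4.76 and 2.40 points higher (limma adjusted p = 0.0927 and 0.123). These 2 were picked out after their values were seen.

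The difference between both mutant effects, tested as an interaction over all 12 libraries, passed an adjusted p under 0.05 in 0 of 426 exons with limma, against 0.42% of all events. The arcsine scale also gave 0, and at an unadjusted p under 0.05 there were 48 (11.3%; 9.16% of all events). The 3 exons with the smallest p all had an adjusted p of 0.156. They were the 63 nt exon at chrIII:9961296-9961358 (1.16 points in sacy-1, 8.18 in mog-5), the 99 nt exon at chrIV:3123742-3123840 (-3.81 and -0.74) and the 219 nt exon at chrII:168175-168393 (4.93 and -3.18). The last of these is taken up again below, where its opposite signs did not hold. In the first, N2 az04 was the group that stood apart, at 74.4% to 78.1% against 83.6% to 86.9% in the other 9 libraries. In the second, N2 az02 and sacy-1 at 10.2% to 15.4% were above N2 az04 and mog-5 at 7.05% to 8.59%. Without az025 1 exon passed, a 60 nt exon at chrIV:7443041-7443100 (limma adjusted p = 0.0401).

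Several of these exons are followed by an exon with closely spaced acceptors, the kind of site the study was about. The authors' second catalogue, named for library introns, lists pairs of acceptors that share a donor, and the share of its upstream acceptor. Of the 447 events, 25 had a next exon whose acceptor belongs to such a pair, each with at most 18 nt between both acceptors. A larger shift was defined after the values were seen, as at least 5 points, no overlap and an unadjusted limma p under 0.05. In mog-5, 7 of the 25 (28%) met it, against 26 of all 440 in-frame exons (5.91%) and 5.24% of all events. In sacy-1 it was 4 of 25 (16%), against 31 of 426 (7.28%) and 7.56% of all events. Between the wild-type sets it was 2 of 25 (8%), against 62 of 431 (14.4%) and 11% of all events. For 29 events in which the skipped exon's own acceptor belongs to such a pair, it was 6 (20.7%) in mog-5 and 2 (6.90%) in sacy-1. Between the wild-type sets it was 1 (3.45%). These shares are descriptions, since the 25 include events that share an exon. Both sets were also looked up after the 213 nt exon of chromosome II had been seen.

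A skipped exon event lists 1 acceptor for the next exon. Reads that join to the other acceptor of the pair may then belong to neither of its forms, but how the scores treat them is not stated. For 9 events, at 8 exons, the pair was listed from both donors, the one used when the exon is skipped and the one at the exon's own end. In sacy-1 the upstream share was higher in 8 of 8 skipping junctions, by 1.41 to 55.7 points, and in 8 of 8 junctions from the exon, by 2.78 to 33.2 points. Of these, 4 and 3 had a limma adjusted p under 0.05, where 14.5% of all 3370 alternative 3′ splice sites did. In mog-5 it was higher in 6 and 7 of 8, of which 2 and 1 passed, with a background of 3.9%. Between the wild-type sets it was higher in 5 and 4 of 8 and none passed (background 0.0886%). These backgrounds count both directions. The share of all such sites with higher upstream use is not given here, so whether the direction was particular to these exons cannot be told.

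At the 213 nt exon of chromosome II the next exon begins at position 167895 or, 9 nt on, at 167904, and the event lists the second. The skipping junction used the upstream acceptor at 0.1%, 3.85% and 2.78% in N2 az02 and at 58.6%, 64.1% and 51.2% in sacy-1 (limma adjusted p = 0.00177). In N2 az04 it was 16.2%, 5.10% and 11.1%, and in mog-5 23.6%, 26.96% and 27.2% (limma adjusted p = 0.114). From the 213 nt exon itself the upstream acceptor was little used. Its share was 0.1% in all 3 N2 az02 libraries, 14.9%, 8.33% and 12.99% in sacy-1 (limma adjusted p = 0.0209), 0.55% to 2.06% in N2 az04 and 0.61% to 1.24% in mog-5. The shift to the upstream acceptor was thus larger in the skipping junction than in the inclusion junction, with group means of 57.9% and 12.1% in sacy-1.

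Inclusion was therefore also computed over both acceptors, by dividing the included and the excluded share each by that junction's use of the listed acceptor. This assumes that the deposited inclusion weighs only junctions into the listed acceptor, which the sources used here do not state. For the 213 nt exon it gave 39.1% ± 4.36 in N2 az02 and 44.8% ± 2.05 in sacy-1, and 33.8% ± 4.47 in N2 az04 and 41.6% ± 2.94 in mog-5 (SD, n = 3). The difference was 5.73 points in sacy-1 in place of 23.4, and 7.82 points in mog-5 in place of 12.7. In sacy-1 the libraries then overlapped those of N2 az02, but only just, with az026 at 42.45% and az021 at 42.55%. In mog-5 they stayed above those of N2 az04, also narrowly, with az045 at 38.5% and az042 at 37.4%.

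The exon at chrIV:363976-364128 is listed in 2 events, each with another acceptor of a pair 6 nt apart, at positions 363879 and 363873. With the upstream acceptor its inclusion was 10.5 points lower in sacy-1, as given above, and with the downstream acceptor it was 6.74 points higher (55.2% in N2 az02, 61.9% in sacy-1). Upstream use rose in sacy-1 in the skipping junction, from 11.7% ± 3.88 to 38.7% ± 5.91 (limma adjusted p = 0.0163), and in the junction from the exon, from 31.04% ± 6.10 to 56.0% ± 3.48 (adjusted p = 0.0202). Over both acceptors the first event gave 67.7% in N2 az02 and 67.0% in sacy-1, a difference of -0.70 points. The mog-5 difference kept most of its size, with 68.2% in N2 az04, 57.3% in mog-5 and a difference of -10.9 points, without overlap. The second event gave 61.2% for N2 az02 and 69.2% for sacy-1, a rise larger than its 6.74 points at the downstream acceptor. It gave 66.4% for N2 az04 and 58.7% for mog-5. The sacy-1 difference over both acceptors thus changed sign with the event, and the mog-5 difference was negative in both. Whether inclusion of this exon changed in sacy-1 therefore cannot be told from this computation. Both events describe 1 exon and would give equal values if the computation were exact. Their group means differed by 1.43 to 6.47 points.

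**Figure D4:**
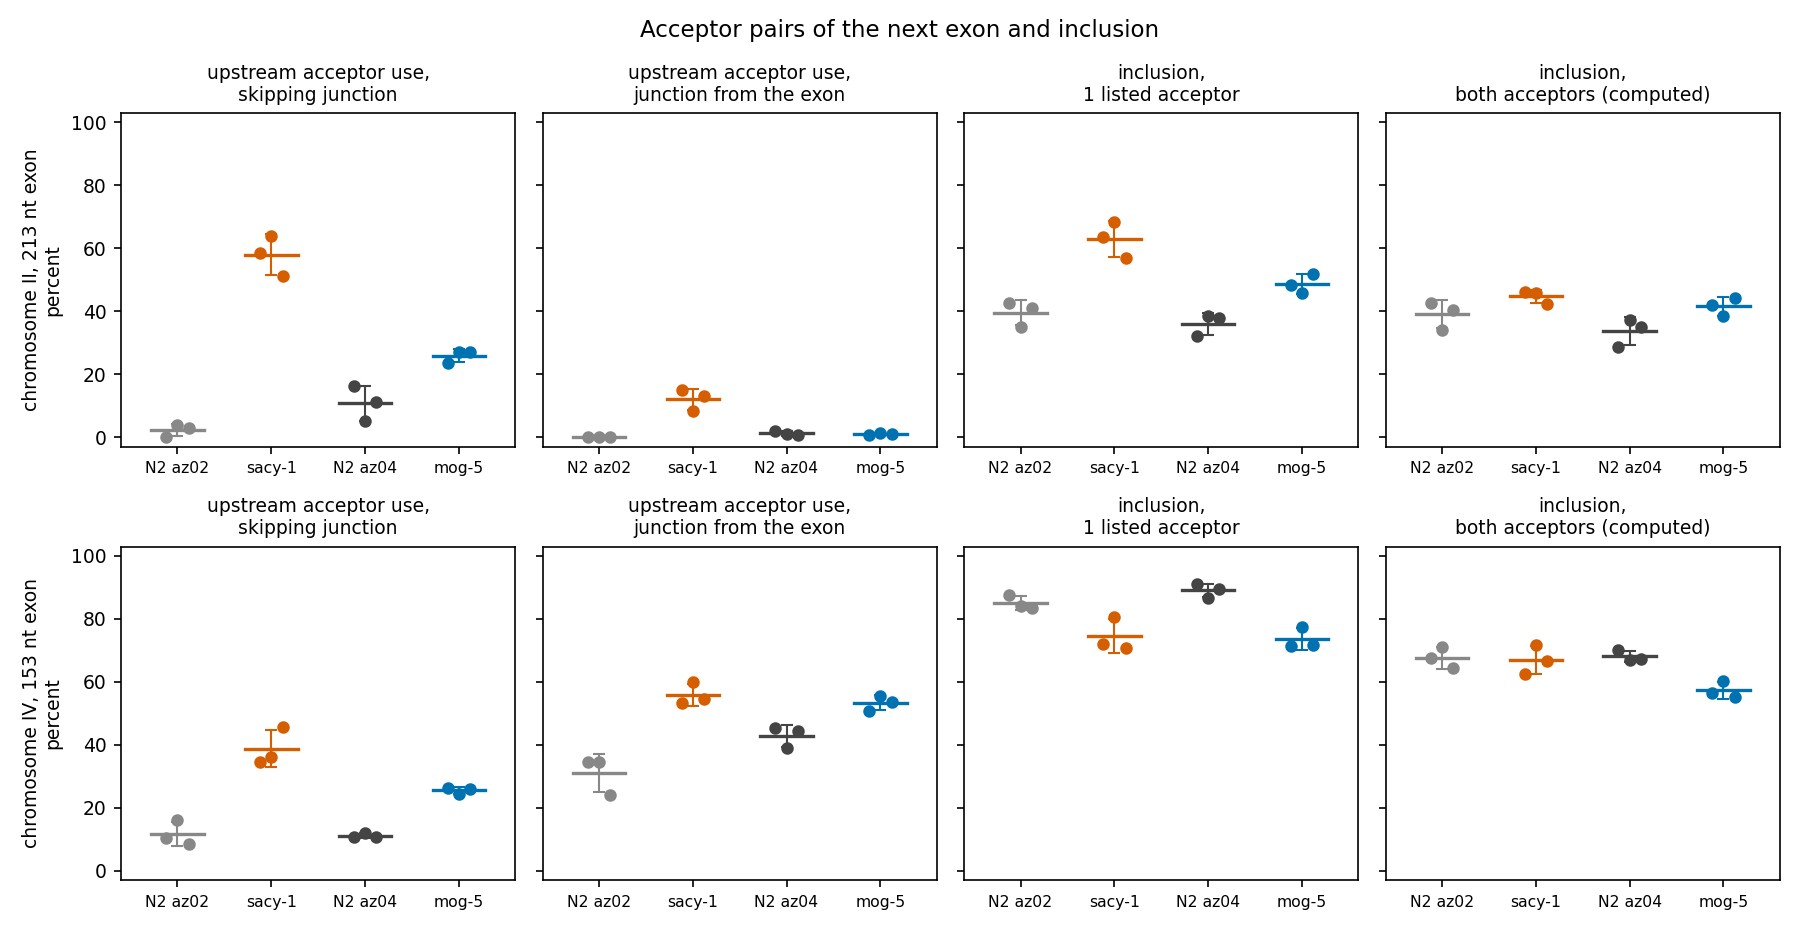
Use of the upstream acceptor of the next exon in the skipping junction and in the junction from the exon, inclusion at the listed acceptor, and inclusion computed over both acceptors (y axis, %), for the 213 nt exon of chromosome II (top) and the 153 nt exon of chromosome IV (bottom). Points are libraries, lines group means and bars SD (n = 3); the sacy-1 difference was 23.4 points at the listed acceptor and 5.73 points over both at the first exon.

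Among the other 6 exons, some pairs were used differently from each donor in wild type, but not all. Behind the 87 nt exon at chrIV:6157817-6157903 the upstream shares were close in N2 az02. They were 92.3% ± 9.77 in the skipping junction and 95.8% ± 3.58 in the junction from the exon (SD, n = 3). Behind the 63 nt exon at chrV:13964744-13964806 the upstream acceptor took 39.8% in the skipping junction and 2.64% in the junction from the exon in N2 az02. Behind the 219 nt exon at chrII:168175-168393 the order was reversed, with 13.1% and 43.1%. That exon follows next but one in the same stretch as the 213 nt exon, whose next exon is the one before it. Inclusion of the 219 nt exon differed by 4.93 points in sacy-1 and by -3.18 points in mog-5 at the listed acceptor. Over both acceptors the differences were 1.05 and 1.59 points, so the mutants no longer went opposite ways. At the 423 nt exon at chrII:7246783-7247205 the upstream acceptor was the listed one. Its upstream use rose in mog-5 from 77.9% to 95.3% in the skipping junction (limma adjusted p = 0.016). In the junction from the exon it rose from 48.1% to 81.8% (limma adjusted p = 0.00179). The rise was also seen in sacy-1, from 79.0% in N2 az02 to 94.3% in the skipping junction (limma adjusted p = 0.0103). From the exon, sacy-1 stood at 81.5% against 48.3% in N2 az02 (limma adjusted p = 0.14). Inclusion of the 423 nt exon was lower by 4.48 points in sacy-1 and 2.96 points in mog-5 at the listed acceptor, and by 10.1 and 9.39 points over both acceptors. Here the computed difference was the larger one.

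By count, more in-frame exons separated both wild-type sets than separated either mutant from its own set; the comparisons share libraries. In N2 az04 against N2 az02, 3 of 431 in-frame exons were called, against 0.499% of all 2405 events, and 12 had an adjusted p under 0.05 at any size (2.78%; 1.7% of all events). At an unadjusted p under 0.05 there were 113 exons (26.2%; 18.7% of all events), 61 higher (10% of all events) and 52 lower (8.65%) in N2 az04. Groups did not overlap in 130 exons (30.2%; 23.2% of all events), 68 of them higher (12.3%) and 62 lower (10.9%), and 29 differed by 15 points or more (6.73%; 5.86% of all events). The labels give no date, culture or run for either set, and what separates the sets was not tested.

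The 150 nt exon at chrI:3422286-3422435 rose from 7.27%, 5.06% and 2.90% in N2 az02 to 30.9%, 33.0% and 29.8% in N2 az04 (limma adjusted p = 0.018). Each mutant resembled the set numbered with it, with sacy-1 at 7.60% to 9.83% and mog-5 at 33.2% to 44.6%. The 102 nt exon at chrX:4519324-4519425 rose from 59.5%, 58.9% and 56.0% to 77.8%, 74.2% and 74.8% (limma adjusted p = 0.0353), again with sacy-1 at 55.2% to 63.3% and mog-5 at 72.1% to 75.98%. The 24 nt exon at chrIII:6166389-6166412 fell from 63.2%, 58.9% and 66.4% to 45.3%, 45.7% and 44.6% (limma adjusted p = 0.0477). There sacy-1 was spread between the sets, at 43.7% to 61.3%. Each call was lost when some library was left out: without az042 or az043 none of the 431 exons was called.

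Other exons differed widely between the sets without being called. The 216 nt exon at chrI:13293518-13293733 stood at 13.7%, 28.4% and 20.6% in N2 az02 and at 44.4%, 37.4% and 46.1% in N2 az04, with sacy-1 at 19.2% to 24.4% and mog-5 at 34.7% to 53.2%. The 135 nt exon at chrX:4922676-4922810 stood at 68.02%, 44% and 59.9%, and at 30.9%, 36.2% and 35.1%, with sacy-1 at 51.96% to 64.6% and mog-5 at 24.3% to 32.4%. In both, sacy-1 lay with N2 az02 and mog-5 with N2 az04 (wild-type differences of 21.7 and -23.3 points, limma adjusted p = 0.111 and 0.185). The 93 nt exon at chrX:6482768-6482860 had the largest difference of all, -39.98 points, but its N2 az02 libraries stood at 70.8%, at 66.7% and at the upper limit (limma adjusted p = 0.142). Of the remaining 3 with the largest differences, the 42 nt exon at chrII:4952484-4952525 was 22.9 points lower and the 54 nt exon at chrII:13636149-13636202 20.7 points higher in N2 az04. The 351 nt exon at chrII:14908202-14908552 was 26.7 points higher, with sacy-1 libraries between 0.1% and 62.5%. Their limma adjusted p was 0.222, 0.106 and 0.234.

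Over the 29 in-frame exons listed in all 12 libraries that differed by 15 points or more between the wild-type sets, the sacy-1 mean lay nearer to N2 az02 in 20 and the mog-5 mean nearer to N2 az04 in 27. Both held in 18. The 29 were chosen by the same wild-type means that nearness is measured against. The same counts over all events are not given here, so whether this was particular to in-frame exons cannot be told. Against the other wild-type set more exons were called than against the own set, 15 of 433 for sacy-1 against N2 az04 and 8 of 431 for mog-5 against N2 az02. The share of all events called in these comparisons is not given here, so both counts lack a background.

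**Figure D5:**
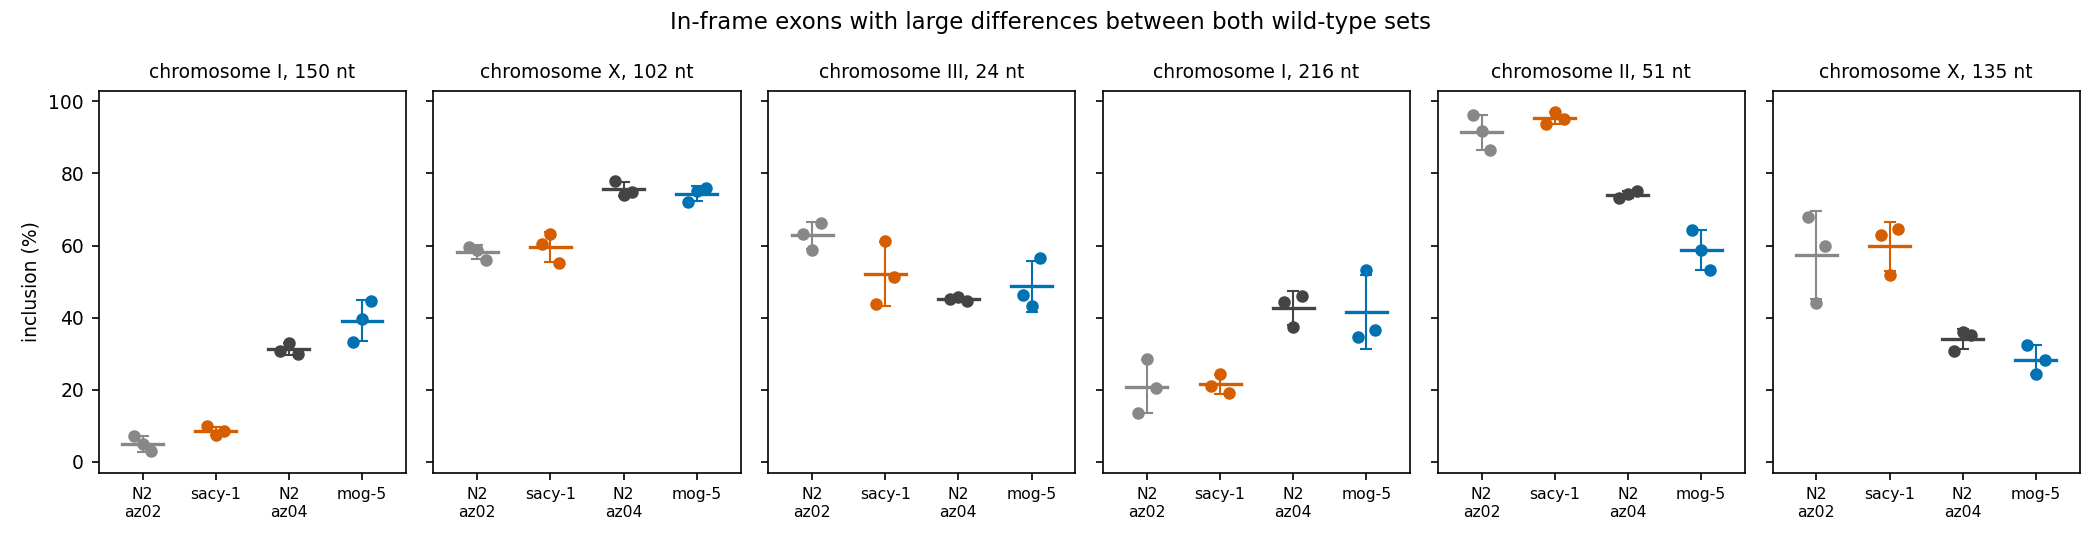
Inclusion (y axis, %) of 6 in-frame exons in every library (points), with the group mean (line) and SD (bar, n = 3), by group (x axis). In the first 2 exons sacy-1 lay beside N2 az02 and mog-5 beside N2 az04; the first 3 exons were called between the wild-type sets.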

How the data were processed

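The authors deposited, for each of the 12 libraries, 2 lists of splicing events on build ce10, per the file headers, with a score for each form of an event, included or excluded. Bowtie2, STAR and SAMtools are named in the submitters' processing notes. Depth and the making of the scores are not given in the sources used here. Inclusion is the percentage that the included score makes up of both scores. Scores are no counts, so no count test was run. Events listed in all 6 libraries of a comparison were compared with limma 3.58.1 under R 4.3.3 (no covariates, Benjamini-Hochberg over all events of the catalogue), after a test on simulated data. Library means were compared with exact two-sided permutation tests. Named exons, 1 event per exon, were those called, the 8 with the largest difference per comparison (unadjusted p under 0.05, at least 5 points, no overlap), the 3 with the smallest interaction p, the 5 lowest, the 5 nearest 50% and the 6 shortest. Other exons were chosen after their values were seen. Members, lists and rules were chosen with earlier results of these data known. Coordinates are 1-based. Scale, variance model, filters, the wild-type set and left-out libraries were varied.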

Additional observations from a re-analysis of the deposited data

How the results depend on the processing

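Differences in mean inclusion were small enough to change sign. For sacy-1 the difference was 0.01 points, and it became -0.0505 with the included score over 1000, -0.0029 with 1 value per exon, -0.31 against N2 az04 and -0.15 against all 6 wild-type libraries, and it ran from -0.15 to 0.24 when single libraries were left out (negative without az021, az025 or az026). For mog-5 it was -0.19 points, and 0.40 with the median and 0.12 against N2 az02. Between the wild-type sets it was 0.32 points, and -0.90 with the median. Counts of called exons in sacy-1 (0) became 1 without a minimum difference, 1 with all 12 libraries in a single fit, 15 against N2 az04 and 1 against all 6 wild-type libraries. In mog-5 (0) they became 1 in the single fit and 8 against N2 az02. Between the wild-type sets (3) they became 12 without a minimum difference, 9 in the single fit and 6 without events at the limits, and 0 to 2 when a library was left out, with 0 without az042 and without az043. The interaction count (0) ran from 0 to 1, with 1 without az025. Apart from the setting without a minimum difference, the share of all events called under these other settings is not given here. The 39 nt exon at chrIII:6412383-6412421 gave -9.13 points in sacy-1 against N2 az04, in place of 20.8. Over the named exons, 357 values under other settings kept direction and side of the threshold, 9 passed it, 16 no longer did and 1 changed sign. The cause of these changes was not tested. Depth is unknown. No paired analysis was possible because the groups share no replicate numbers.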

Other observations

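Of the 435 exons, 10 were listed in more than 1 event, with other neighbours, and inclusion could differ widely between the events of an exon. The 129 nt exon at chrIII:730304-730432 was included at 99.2% over the 12 libraries when the flanking exons reach from 729981 to 731921, and at 21.4% when they reach from 729981 to 730679, with a median sum of scores of 669 of 1000 in the second. The 57 nt exon at chrV:13554567-13554623 stood at 97.0% with flanks from 13554412 to 13555773 and at 5.84% with flanks from 13554412 to 13554974. In both exons the lowest library of the first event was above the highest library of the second.

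On the X chromosome 2 exons of 1 region were each listed in 3 events. The 249 nt exon at chrX:9554242-9554490 averaged 61.1%, 54.7% and 82.9%, and the 555 nt exon at chrX:9555742-9556296 averaged 58.9%, 70.4% and 45.03%. The event of the 249 nt exon with the nearest neighbours had its lowest library at 77.9%, above the highest library of the other events, at 65.9%. Its median sum of scores was 994 of 1000, against 569 and 540 in the others.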
